A study of Homo sapiens with 2 samples.

Results

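The genes CCNB1, CCNA2, CDK1, PLK1, AURKA, AURKB, TOP2A, MKI67, BUB1 and CDC20, which act in G2 and mitosis, were followed in BS008-treated Huh-7 cells, a line derived from human hepatocellular carcinoma. The deposited tables list exons by position on the hg19 build and carry no gene names. Members were therefore the exons that lay at the hg19 position of each of these 10 genes, on its strand, in both tables. They came to 141 of the 239322 exons listed (0.0589%). Of these, 124 (87.9%) had the length of an exon of the same gene in GENCODE release 29, and the comparison used lengths alone because that release is on another build. The study compared control cells in 0.1% DMSO with cells in 0.1 mM BS008, a derivative of the diuretic amiloride, after 24 h, and sequenced 1 library for each condition. The labels conflict in 1 field, since the protocol text of both libraries names BS008, and the control was identified from the treatment listed among the characteristics of its sample, which is DMSO. The labels give both cultures the same range of passages, and the solvent content of the BS008-treated culture was not given in the sources used here. As no condition has a second library, no test was possible, and every interval below is a 95% interval that covers the counting of reads only.

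The libraries held 55476654 (control) and 53578432 (BS008) reads on exons. As a check of the labelled cell type, the hepatocyte genes ALB, AFP and APOA1 were read at 2164, 1178 and 547 RPKM in control cells and at 2521, 806 and 417 RPKM after BS008, while TTR was low in both (11.1 and 7.84 RPKM). RPKM is the read count scaled to the exon length in kilobases and to the library's summed exon reads. The leukocyte gene PTPRC had 0 reads in both libraries. The smallest share shown, that of 3 reads, is 5.41e-06% for the control and 5.60e-06% for BS008.

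Entry into mitosis is driven by the kinase CDK1 bound to cyclin A2 (CCNA2) and cyclin B1 (CCNB1), and the Polo and Aurora kinases then act on centrosomes, spindle and kinetochores. The checkpoint protein BUB1 delays anaphase until chromosomes are attached, and CDC20 turns on the anaphase-promoting complex, which marks cyclin B1 for destruction. The RNAs of such genes accumulate in G2 and M, and their promoters are known for CCAAT boxes, which bind NF-Y, and for the cell cycle homology region (CHR), which binds the DREAM and MuvB complexes. The study also measured the cell cycle distribution of treated Huh-7 cells by DNA content. The question here was how the RNA of these genes stood in the same treatment. In a bulk library, a change in the number of cells in G2 and M and a change in the RNA of each such cell cannot be told apart.

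The promoters of the 2 members with the largest difference between the libraries, MKI67 and CCNB1, and of the 2 with the smallest, CDC20 and CDK1, are shown to compare the letters of these elements. The sequences are those of RefSeq on GRCh38.p14, from 250 bases before to 50 bases after the annotated start. They were matched by gene symbol, and the exon positions given below are on hg19. Capitals mark CCAAT and the CHR letters TTTGAA or TTCGAA on either strand (ATTGG and TTCAAA are the same letters read from the other strand). The windows lie at chr10:128126374-128126673 (minus strand) for MKI67, chr5:69166900-69167199 (plus strand) for CCNB1, chr1:43358731-43359030 (plus strand) for CDC20 and chr10:60778228-60778527 (plus strand) for CDK1, which has a second annotated start.
MKI67: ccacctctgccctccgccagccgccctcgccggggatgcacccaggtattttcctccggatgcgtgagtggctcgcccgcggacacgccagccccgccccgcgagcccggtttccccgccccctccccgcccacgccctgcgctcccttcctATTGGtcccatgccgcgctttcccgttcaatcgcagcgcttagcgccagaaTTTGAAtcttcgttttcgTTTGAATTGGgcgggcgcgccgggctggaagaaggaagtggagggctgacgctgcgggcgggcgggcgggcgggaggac
CCNB1: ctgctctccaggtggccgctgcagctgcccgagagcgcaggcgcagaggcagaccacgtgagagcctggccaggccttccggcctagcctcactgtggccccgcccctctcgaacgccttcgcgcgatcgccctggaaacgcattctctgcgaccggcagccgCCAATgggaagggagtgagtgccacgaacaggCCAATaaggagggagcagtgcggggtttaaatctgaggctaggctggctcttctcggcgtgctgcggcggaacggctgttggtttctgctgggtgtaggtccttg
CDC20: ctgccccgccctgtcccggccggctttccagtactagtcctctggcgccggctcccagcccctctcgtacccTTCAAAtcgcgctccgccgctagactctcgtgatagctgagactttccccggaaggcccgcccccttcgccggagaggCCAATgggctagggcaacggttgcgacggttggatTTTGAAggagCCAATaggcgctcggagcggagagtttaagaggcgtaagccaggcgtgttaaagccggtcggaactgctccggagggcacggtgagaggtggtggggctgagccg
CDK1: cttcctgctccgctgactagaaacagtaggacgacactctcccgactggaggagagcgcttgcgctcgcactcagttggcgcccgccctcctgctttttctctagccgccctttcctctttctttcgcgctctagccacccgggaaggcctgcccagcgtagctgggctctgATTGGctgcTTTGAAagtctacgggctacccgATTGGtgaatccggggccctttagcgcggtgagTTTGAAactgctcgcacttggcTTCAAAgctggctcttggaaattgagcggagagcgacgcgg

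In MKI67, TTTGAA began at -47 and at -29 relative to the start, and the second copy shared 1 base with the ATTGG at -24. The CCNB1 window held CCAAT at -87 and -55 and neither TTTGAA nor TTCGAA on either strand. Other forms of the CHR were not searched, so this does not show that a window lacks the element. The CDC20 window held TTTGAA at -65, TTCAAA at -178 and CCAAT at -100 and -55. Letters of both elements were thus found at genes with a large and with a small difference. The table gave 11 windows for 9 of the 10 members, all but AURKA. CCAAT was in 11 of these 11 windows, and it was in 34.6% of all 35116 windows. TTTGAA or TTCGAA, on either strand, was in 7 of the 11 windows (6 of the 9 genes: CDK1, PLK1, TOP2A, MKI67, BUB1 and CDC20) and in 16.4% of all windows. The other genes of G2 and mitosis described below had 35 windows, for 27 of them. TTTGAA or TTCGAA was in 22 of these (62.9%), a share like that of the members (63.6%), and CCAAT in 24 (68.6%). A match of letters is a description and was not tested as a binding site.

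The 10 genes together held 160698 reads in the control library and 89061 in the BS008 library. Their share was 0.290% (95% Wilson interval 0.288 to 0.291%) of the control library and 0.166% (0.165 to 0.167%) of the BS008 library. Changes are given as the log2 ratio of BS008 to control on CPM values (counts scaled to the library's summed exon reads) with a pseudocount of 0.5 CPM. All 10 genes had a ratio below 0, from -1.28 for MKI67 to -0.09 for CDC20, with a median of -0.81. As the files name no genes, the background was taken from runs of exons on 1 strand that lie within 10 kb of each other, which can join neighbouring genes. The median log2 ratio was 0.01 over the 24004 runs with at least 10 reads in either library. It was -0.07 over the 7629 runs with at least 1000, a minimum added after the data were seen because every member exceeds it.

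One member of the 10, MKI67, was lower by 2-fold or more after BS008, and 0 were higher by as much. The background was 5.11% lower and 6.62% higher among runs with at least 10 reads, and 6.96% and 6.53% among those with at least 1000. At 2-fold the count therefore stood near the background. At least 1.5-fold lower were 7 members (CCNB1, CCNA2, PLK1, AURKA, TOP2A, MKI67 and BUB1), against 14.9% of runs with at least 10 reads and 18.9% of those with at least 1000. No member was 1.5-fold higher, against 15.9% and 14.8% of these runs. Most members were thus lower by between 1.5-fold and 2-fold.

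**Figure D1:**
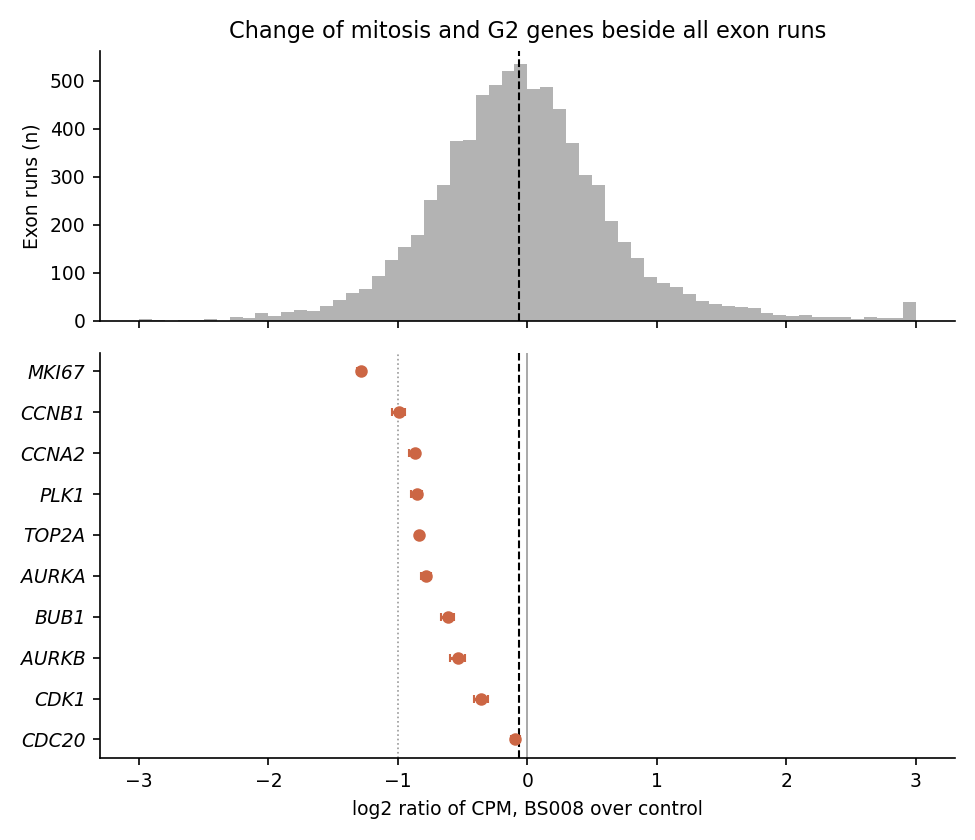
The upper panel counts the exon runs with at least 1000 reads by their log2 ratio of CPM (BS008 over control), with ratios beyond 3 in either direction placed in the end bins and the median of -0.07 as a dashed line in both panels. The lower panel gives the log2 ratio of each of the 10 genes with its 95% counting interval (bars), and all of them lie left of 0, with MKI67 past the dotted line at -1 and CDC20 beside the median of the runs.

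Among the cyclins, CCNB1, the mitotic cyclin B1, was read 9808 times in control cells and 4752 times after BS008. Its log2 ratio was -0.99 (interval -1.05 to -0.95), so the BS008 library held 50.3% of the control level. Its 9 exons lie on chromosome 5 between 68462913 and 68474066 (plus strand). CCNA2, the cyclin A2 of S phase and G2, had 15049 reads in the control and 7933 with BS008 (log2 ratio -0.87, -0.91 to -0.83) over 8 exons on chromosome 4 between 122737600 and 122745088 (minus strand). Both cyclins were close to 2-fold lower. Their partner kinase CDK1 differed by less, with 5832 reads in the control and 4392 after BS008 (log2 ratio -0.36, -0.42 to -0.30). It has 8 exons on chromosome 10 between 62538123 and 62554604 (plus strand). Of these, 7 had at least 10 reads, and the exon of 95 bp at the 5′ end had 0 reads in the control and 1 after BS008. The CDK1 interval did not reach those of the cyclins.

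Among the mitotic kinases, PLK1, which acts at centrosomes and kinetochores, had 14646 reads in the control library and 7816 after BS008 (log2 ratio -0.85, -0.90 to -0.82). Its 10 exons lie on chromosome 16 between 23690201 and 23701688 (plus strand). AURKA, the Aurora kinase of the spindle poles, had 13316 and 7468 reads (log2 ratio -0.78, -0.83 to -0.74) over 11 exons on chromosome 20 between 54944445 and 54967351 (minus strand). AURKB, the Aurora kinase of the chromosomal passenger complex, had 5694 and 3788 reads (log2 ratio -0.53, -0.60 to -0.48) over 9 exons on chromosome 17 between 8108050 and 8113883 (minus strand). The intervals of PLK1 and AURKA overlapped, and AURKB was lower by less, with an interval that did not overlap theirs.

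The 2 members that act on chromosomes themselves had the most reads. TOP2A, the topoisomerase that untangles sister chromatids, had 44854 reads in the control library and 24239 after BS008 (log2 ratio -0.84, -0.86 to -0.82) over 35 exons on chromosome 17 between 38544798 and 38574169 (minus strand). MKI67, which encodes the proliferation marker Ki-67 of the mitotic chromosome surface, had 31103 and 12332 reads (log2 ratio -1.28, -1.31 to -1.25) over 15 exons on chromosome 10 between 129894927 and 129924468 (minus strand). MKI67 was left at 41.1% of its control level, the lowest of the 10 genes, and TOP2A at 56.0%.

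The 2 members that govern the start of anaphase differed from each other. BUB1, a kinase of the spindle assembly checkpoint, had 7728 reads in the control library and 4867 after BS008 (log2 ratio -0.61, -0.67 to -0.56) over 25 exons on chromosome 2 between 111395411 and 111435684 (minus strand). CDC20, the target of that checkpoint, had 12668 and 11474 reads (log2 ratio -0.09, -0.13 to -0.06) over 11 exons on chromosome 1 between 43824626 and 43828871 (plus strand). CDC20 kept 93.8% of its control level, and 48.1% of the runs with at least 1000 reads had a lower ratio than it. For MKI67 this share was 3.29% and for CCNB1 7.14%.

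Per length, TOP2A had the highest level in control cells (141 RPKM), ahead of CDC20 (126) and PLK1 (122), whose intervals overlapped. CCNA2 (97.0 RPKM) and AURKA (94.2) followed and also overlapped, as did CCNB1 (84.4) and AURKB (82.2). MKI67 (44.9 RPKM), BUB1 (33.1) and CDK1 (23.9) were the lowest. In CDK1, the annotation of the tables includes an exon of 2571 bp, a length that no CDK1 exon has in GENCODE, so its level per length may be set too low. After BS008, CDC20 came first at 118 RPKM, and TOP2A (79.1), PLK1 (67.3), AURKB (56.7), AURKA (54.7) and CCNA2 (52.9) followed. The intervals of AURKB and AURKA overlapped, as did those of AURKA and CCNA2. CCNB1 was at 42.4 RPKM and BUB1 at 21.6, and CDK1 (18.7) and MKI67 (18.4) came last with overlapping intervals. Between the libraries, CDC20 thus passed TOP2A, and BUB1 passed MKI67. AURKB stood below CCNA2 in control cells and above it after BS008, and the intervals of these 2 genes did not overlap in either library.

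**Figure D2:**
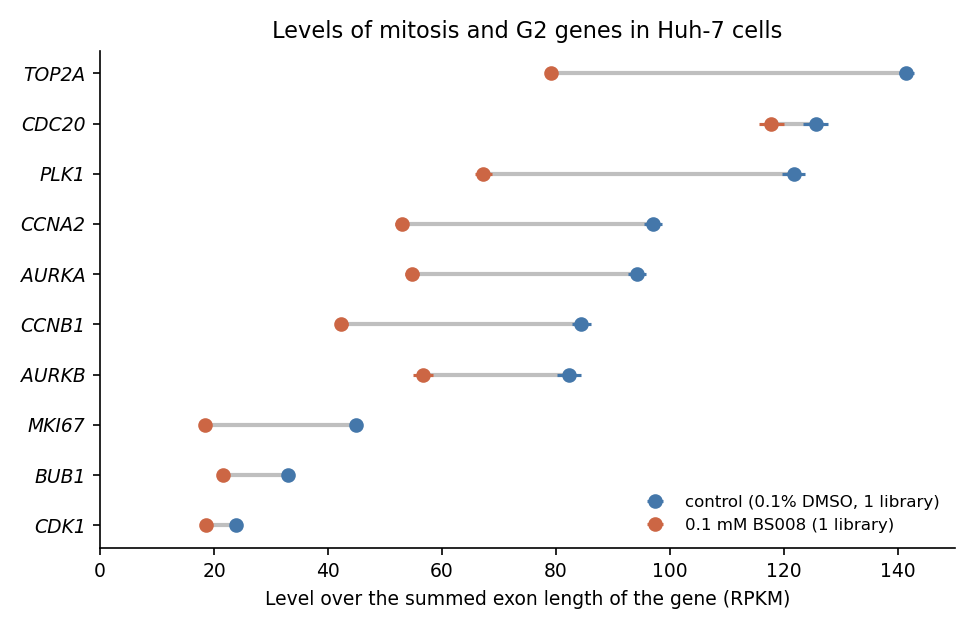
The level of each gene over its summed exon length (RPKM) in the control library and in the BS008 library, 1 library each, with 95% Poisson intervals as bars, mostly narrower than the points. Each BS008 point lies left of its control point, and the gap is narrowest for CDC20 (126 and 118 RPKM) and CDK1 (23.9 and 18.7 RPKM).

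The exons of 1 gene share their transcripts and are not replicates, but they show whether a difference ran along the whole RNA. Of the 141 exons, 140 had at least 10 reads in either library, and 136 of them were lower after BS008, while 53.2% of all 131330 exons with that many reads were lower. The 4 higher exons were all of CDC20, exons 5 to 8 from its 5′ end, with log2 ratios up to 0.10. At least 2-fold lower were 14 of the 140 member exons, 8 of MKI67, 3 of CCNB1, 2 of CCNA2 and 1 of PLK1, against 3.79% of all exons. At least 1.5-fold lower were 90 (64.3%), against 13.9% of all exons. No member exon was 2-fold or 1.5-fold higher, against 3.73% and 11.5%. The shares of all exons include exons with as few as 10 reads, where the pseudocount draws the ratio towards 0. Of the member exons, 134 had at least 100 reads in the higher library, and no background of like depth was made for exons. The log2 ratios of single exons stayed close to each other in CDK1 (-0.43 to -0.27) and CCNB1 (-1.17 to -0.88). Neighbouring exons moved together in stretches in TOP2A and BUB1, which were singled out after their values were seen. In TOP2A, exons 5 to 8 from the 5′ end lay between -0.53 and -0.42, while exons 2 to 4 before them lay between -0.96 and -0.91. In BUB1, exons 16 to 25 lay between -0.46 and -0.22, and exons 11 to 15 between -0.79 and -0.70. Nearer the 5′ end of BUB1, exons 1 (-0.25), 2 (-0.42), 6 (-0.37) and 7 (-0.44) lay in the range of exons 16 to 25. Taken singly, most of these BUB1 exons differed from the rest of the gene by an amount whose counting interval held 0. The same was true of TOP2A exons 2, 4 and 6. The wider range in MKI67 (-1.35 to -0.24) includes exons near the 5′ end with few reads, where the pseudocount draws the ratio towards 0. One of these, of 181 bp, had 44 reads in the control library and 32 with BS008, a log2 ratio of -0.24 that was -0.41 without the pseudocount. Without it, this exon still stood 0.88 above the rest of MKI67 (0.17 to 1.57), so the pseudocount accounts for only part of its distance.

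**Figure D3:**
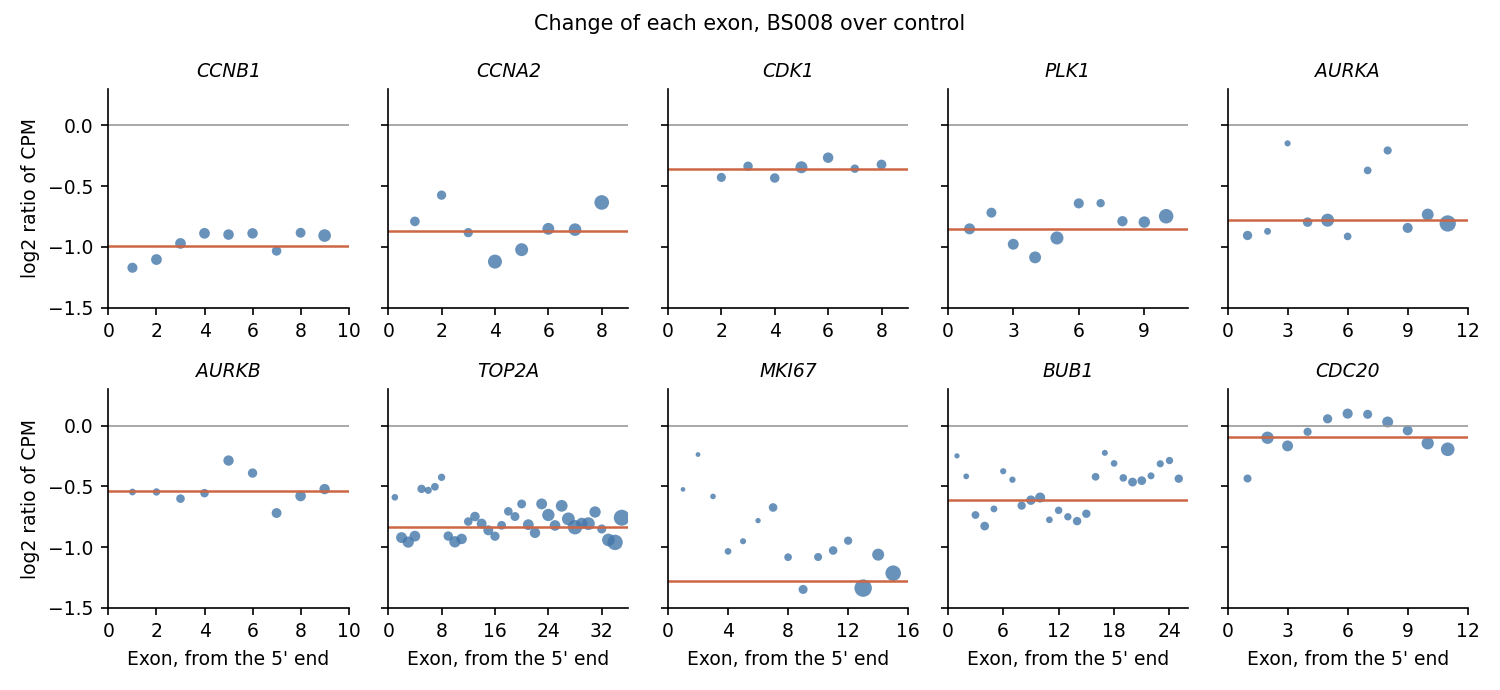
The log2 ratio of CPM (BS008 over control, pseudocount 0.5) of each exon with at least 10 reads, in order from the 5′ end, with larger points for exons with more control reads and a line at the ratio of the whole gene. The points keep near the line of their gene in CCNB1 and CDK1. They stand above it for 3 AURKA exons, for exons 16 to 25 of BUB1 and for some BUB1 exons nearer the 5′ end. They arch across 0 in CDC20, while in MKI67 the line follows the exon with most reads.

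Each gene was split at the middle of its summed exon length, with each exon placed whole by its midpoint. In MKI67 the exon of 6845 bp thus fell in the 5′ part, which held 79.0% of the gene's control reads. Across the genes, the 5′ part had log2 ratios from -1.31 (MKI67) to -0.08 (CDC20) and the 3′ part from -1.18 (MKI67) to -0.10 (CDC20). The 3′ part exceeded the 5′ part by a median of 0.07. The counting interval of this difference lay above 0 in 5 genes (CCNA2, PLK1, TOP2A, MKI67 and BUB1), below 0 in 2 (AURKA and AURKB) and across 0 in 3 (CCNB1, CDK1 and CDC20). No such split was made for other genes or runs. A shift common to the whole library therefore cannot be told apart from one of these genes. The difference itself was largest in CCNA2, at 0.26 (0.20 to 0.33). For MKI67 and CDC20 the direction depended on the split. Between the first and last parts of a split into 3, the difference in MKI67 was -0.08 instead of 0.13. In CDC20 it was 0.0015 instead of -0.02. AURKA stayed below 0 but came close to it, at -0.00039 instead of -0.06, and the other 7 genes kept their direction. The 3′ exon of CCNA2, of 1242 bp, overlaps 2 exons listed on the opposite strand. They had 408 and 797 control reads, and 258 and 628 with BS008. The strand setting of the counting was not given in the sources used here, so reads of the 2 strands cannot be told apart there. Without that exon the log2 ratio of CCNA2 was -0.96 instead of -0.87. In PLK1, the 3′ exon overlaps an opposite exon with 10 and 7 reads.

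Because the study concerns alternative splicing, the share of each exon in the reads of its gene was also compared. The share moved by under 1 percentage point for 124 of the 141 exons. Exons are named where the higher library had at least 100 reads and the share moved by at least 2 percentage points, or the log2 ratio stood at least 0.58 away from that of the rest of the gene. Of the 141 exons, 6 met this. The share of exons of other genes that meet the same rule was not computed. An exon with a small share of its gene, as most have in TOP2A, can hardly move by 2 points. The count therefore does not show whether exon use was more or less even than elsewhere. In AURKA, the exon of 139 bp at 54956489 to 54956627 had 371 reads in the control library and 307 after BS008. Its share went from 2.79% (Wilson interval 2.52 to 3.08%) to 4.11% (3.68 to 4.59%), and its log2 ratio stood 0.58 above the rest of AURKA (0.36 to 0.80). The AURKA exon of 98 bp at 54963743 to 54963840 had 120 and 102 reads, 0.61 above the rest (0.21 to 1.00). An exon of this length is in 4 of the 13 protein-coding AURKA transcripts of GENCODE, and one of 139 bp in 9. Both AURKA exons thus kept most of their reads while the gene as a whole was lower.

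In AURKB, the exon of 195 bp at 8110494 to 8110688 went from 947 to 745 reads, and from 16.6% (15.7 to 17.6%) to 19.7% (18.4 to 21.0%) of the gene. In CCNA2, the exon of 224 bp at 122741697 to 122741920 went from 21.3% (20.6 to 21.9%) to 17.7% (16.9 to 18.6%), and the 3′ exon from 25.4% (24.7 to 26.1%) to 29.9% (28.9 to 30.9%). The latter is the exon that overlaps the opposite strand. In MKI67, the exon of 6845 bp at 129900843 to 129907687, which holds most reads of the gene, had 21561 reads in the control library and 8224 after BS008. Its share went from 69.3% (68.8 to 69.8%) to 66.7% (65.9 to 67.5%). One more MKI67 exon fell just outside the rule and was chosen after its values were seen, as it tells the Ki-67 isoforms apart. It has 1080 bp (129913192 to 129914271), and an exon of this length is in 1 of the 2 protein-coding MKI67 transcripts of GENCODE. It had 464 and 271 reads, which was 1.49% (1.36 to 1.63%) and 2.20% (1.95 to 2.47%) of the gene, and its log2 ratio stood 0.57 (0.35 to 0.79) above the rest. Reads across junctions were not used here, so these shares do not show which exons were joined.

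Other genes of G2 and mitosis were read in the same way from a list chosen by role, with earlier results of these data known. Of 35 genes, 34 had the exon lengths of the annotation at their position, and UBE2C, which did not, was left out. The list had a median log2 ratio of -0.33, with 26 genes lower and 8 higher. Of all runs, 49.5% were lower among those with at least 10 reads and 54.6% among those with at least 1000. At least 2-fold lower were 4 of the 34 (11.8%) and 0 were 2-fold higher, against 5.11% and 6.62% of runs with at least 10 reads and 6.96% and 6.53% of those with at least 1000, which all 34 genes reach. At least 1.5-fold lower were 9 (26.5%) and 1 was 1.5-fold higher, against 14.9% and 15.9% of the former runs and 18.9% and 14.8% of the latter. The list as a whole therefore lay below the median of the runs, by less than the 10 members.

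The 4 genes at least 2-fold lower act on the spindle or at anaphase. ASPM, which organises spindle poles, had 9059 reads in the control library and 3449 after BS008 (log2 ratio -1.34, -1.40 to -1.29). The kinesin KIF20A, a motor of cytokinesis, had 6953 and 3111 reads (log2 ratio -1.10), and KIF11, the kinesin that separates the poles, had 5806 and 2670 (log2 ratio -1.06). ESPL1, the protease separase that cuts cohesin, had 5735 and 2580 reads (log2 ratio -1.09). Of the 9 spindle genes, 8 were lower, with a median log2 ratio of -0.60. The 3 chromosomal passenger genes, partners of AURKB, lay between -0.59 and -0.37. The 4 checkpoint genes beside BUB1 lay between -0.60 and -0.17, and the 6 kinetochore genes between -0.50 and 0.13.

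In the group that controls CDK1, 4 of the 8 genes were lower and the median was -0.13. In the group of anaphase and mitotic exit, 2 of the 4 genes were lower, and the median was -0.11 within a range from -1.09 (ESPL1) to 0.25. Both groups thus lay on either side of 0. The largest ratio of the list was that of CKS2, a small CDK-binding subunit, with 1456 reads in the control library and 2474 after BS008 (log2 ratio 0.80, 0.72 to 0.91). Its relative CKS1B had 4752 and 5750 reads (log2 ratio 0.32, 0.27 to 0.38). In the spindle group, the centrosome kinase NEK2 was higher, with 2403 and 2987 reads (log2 ratio 0.36, 0.29 to 0.44). FOXM1 and WEE1 fall outside the rule for naming and were chosen after their values were seen. FOXM1, a transcription factor that activates G2 and M genes, had 13169 and 7809 reads (log2 ratio -0.70, -0.74 to -0.66). WEE1, the kinase that holds CDK1 inactive, had 3318 and 3965 reads (log2 ratio 0.30, 0.24 to 0.37).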

How the data were processed

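RNA of Huh-7 cells was sequenced from mRNA-seq kit libraries, with 1 library for control and 1 for BS008. The authors deposited raw counts per exon, without normalization, and RPKM values. RPKM recomputed from the deposited counts, exon lengths and summed exon counts differed from the deposited values by at most 4.7e-06. The submitters' processing notes name hg19. Aligner, counting tool, strand setting and annotation were not given in the sources used here.

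Counts were summed over the exons at the position of each gene. Positions of the other mitosis genes and of the cell type markers were kept where at least 2 exons, and no fewer than those unmatched, had an exon length of GENCODE release 29. PECAM1 failed this and was not read. Ratios used CPM, a pseudocount of 0.5 CPM and, for exons and runs, at least 10 counts in either library. Intervals for ratios are exact binomial (Clopper-Pearson) and for RPKM exact Poisson. Shares have Wilson intervals. The smallest share shown is 3 counts of the total. All cover counting error at 95%, and reads without molecular identifiers are not independent molecules. The reads of a gene are its summed exon counts. As the counting tool was not given, a read across a junction may have been counted in several exons.

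The rule for named genes took all members and, of the other genes, those at least 2-fold changed or, in a direction with none, the 3 most extreme. The members and lists were chosen with earlier results of these data known. Alternatives were TMM factors, a total without mitochondrial exons, pseudocounts of 0.1 and 1 CPM, other minimums and thresholds, exons left out, and a thinned control library. The ratio step was tested on simulated counts with known changes, all larger than those of the members and without spread between cultures. Python 3.11.15, pandas 2.3.3, scipy 1.17.1, matplotlib 3.10.9 and edgeR 4.0.16 (for TMM) in R 4.3.3 were used.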

Additional observations from a re-analysis of the deposited data

How the results depend on the processing

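All 10 member genes kept a log2 ratio below 0 under each normalization, pseudocount, exon selection and thinning tried. With TMM factors, the median of the members was -0.75 instead of -0.81, since TMM shifts every log2 ratio up by 0.06, and CDC20 was at -0.03. With a pseudocount of 1 CPM, 9 member exons were at least 2-fold lower instead of 14, and with 0.1 CPM 21 were. A threshold of 1.5-fold gave 7 member genes, 90 member exons and 9 of the other mitosis genes lower, and 1 of those genes higher. The other 46 recomputed counts and medians stayed within 1.5 times of the reported count or close to the reported median. CDC20 was at -0.05 when only exons with an annotated length were summed, and CCNA2 at -0.96 without its exon that overlaps opposite-strand exons, an alternative chosen after seeing the data. No paired analysis was possible because each condition has 1 library, and no fit without a replicate could be made. At this depth the counting intervals were narrow. With TMM factors every member's ratio lay above its counting interval, as for TOP2A at -0.78 against -0.86 to -0.82. The ratios thus also depend on the scaling and, in CCNA2, on the exons summed. The data cannot give the spread between cultures.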

Other observations

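Over the 10 members and the other 34 genes of G2 and mitosis, genes with more exon sequence tended to have lower ratios. The 11 genes with the shortest summed exon length (612 to 2169 bp) had a median log2 ratio of -0.28, and 3 of them were higher after BS008. The 11 longest (4214 to 12493 bp) had a median of -0.61, and WEE1 alone was higher. Across these 44 genes, Pearson's r between the log2 of the summed length and the log2 ratio was -0.50 and Spearman's rho -0.41. Across the 7629 exon runs with at least 1000 reads, r was 0.02 and rho 0.02, and the median log2 ratio lay between -0.10 and -0.05 in each of 4 classes of length. The genes share the same 2 libraries and many of their regulators, so the points are not independent, and the relation was seen in these data and not tested. The log2 ratio followed the control level less closely (r = -0.16, rho = -0.18 over the 44 genes).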
